A study of Homo sapiens with 13 samples.

Results

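Cytosolic ribosomal protein genes encode the protein parts of the large and small subunits of the ribosome, named RPL and RPS. They were taken here as every entry of the 2 expression tables whose symbol has the form of an RPL or RPS gene, with Y-linked names and numbered pseudogenes left out. The rule found 91 of 56831 entries, 56 of the large and 35 of the small subunit. They comprise 77 main genes (46 large and 31 small), 8 paralogs of main genes and 6 other entries. These 6 had no single match in GENCODE release 44 (RPL12L3, RPL7AL2, RPL7AL3, RPS10L, RPS2L1 and RPS5L). FAU and RACK1 also encode ribosomal proteins but fall outside the symbol rule, and they are given beside the family.

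A ribosome needs its proteins in matched amounts, and their mRNAs are among the most abundant of any growing cell. Many of these mRNAs begin with a C followed by a run of pyrimidines, the 5′ terminal oligopyrimidine (TOP) motif, through which mTOR signalling controls their translation. RPL5 and RPL11 form a particle with 5S rRNA that can bind MDM2, and RPLP0, RPLP1 and RPLP2 build the stalk that recruits elongation factors. A few family members have expressed paralogs, such as RPL22L1 and RPL39L, which differ in level between tissues.

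RNA was sequenced from H82 and H146, established small cell lung cancer (SCLC) cell lines of the SCLC-N and SCLC-A subtypes, both labelled wild type. Cells were left untreated or received 100 nM FHD-286, a dual allosteric inhibitor of the SMARCA2 and SMARCA4 ATPases of the SWI/SNF chromatin remodeling complex, for 14 days. There were 3 untreated libraries of each line, 3 treated libraries of H82 and 4 of H146. Nothing in the labels says that replicates were separate cultures, so p values measure the spread between these libraries, which may be technical.

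Values are TPM, the reads of a gene per unit of its length, scaled to sum to 1000000 in each library. A TPM is therefore a share, the reads behind it are not in the values, and fewer cells and less RNA per cell cannot be told apart. NEUROD1, which marks SCLC-N, was at 224 to 234 TPM in untreated H82 and under 1 TPM in H146, and SYP and CHGA were present in both lines. Treated H82 library 2 held INSM1 at 296 TPM, FOXA2 at 35.7 TPM and EPCAM at 32.8 TPM, against highs of 33.9, 2.62 and 3.08 TPM in the other H82 libraries. All 3 genes were abundant in H146. Treated H146 libraries 3 and 4 held MT-RNR2, the large mitochondrial rRNA, at 0.211% and 0.139% of TPM, against 1.50% or more in the other H146 libraries.

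The starts of 9 family genes are shown. The same short motif recurs in most but not all of them, and genes that have it later differ in response. Each line gives 15 bases before and 15 bases from the RefSeq start (GRCh38.p14), 5′ to 3′ on the gene's own strand, and capitals mark the unbroken run of C and T that holds the first transcribed base.
RPS21 (chr20:62387088-62387117, plus strand): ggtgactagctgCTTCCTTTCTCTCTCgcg
RPL36A (chrX:101390996-101391025, plus strand): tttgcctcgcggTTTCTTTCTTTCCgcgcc
RPL36AL (chr14:49620612-49620641, minus strand): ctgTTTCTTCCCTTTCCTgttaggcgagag
RPLP1 (chr15:69452803-69452832, plus strand): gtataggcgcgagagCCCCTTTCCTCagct
RPS24 (chr10:78033848-78033877, plus strand): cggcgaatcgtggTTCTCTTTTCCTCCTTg
RPL39 (chrX:119791616-119791645, minus strand): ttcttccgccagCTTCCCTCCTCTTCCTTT
RPL22L1 (chr3:170870181-170870210, minus strand): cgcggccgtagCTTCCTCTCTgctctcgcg
RPL26L1 (chr5:172958714-172958743, plus strand): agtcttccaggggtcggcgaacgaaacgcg
RPL7L1 (chr6:42879601-42879630, plus strand): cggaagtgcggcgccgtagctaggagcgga

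A RefSeq promoter was matched for 68 of the 91 entries. Of these, 43 (63.2%) had a C at the annotated start and at least 5 pyrimidines in a row from it, against 3.94% of 35032 other promoters. The paralogs RPL26L1 and RPL7L1 had neither a C at the start nor a pyrimidine run there, while RPL22L1 had both. RPL36AL had a C at the start and a run over it, but only 3 pyrimidines from the start on, short of 5. In the 250 bases before and 50 after the start, the letters CCGGAAG, a motif bound by ETS factors, stood on either strand in 33.8% of the family and 10.2% of the others. AAGATGGC, a YY1 motif, stood in 10.3% and 2.87%, and TATAAA in 10.3% and 11.5%. These matches describe the letters in the window and not binding.

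The family held a similar share of all TPM in untreated cells of both lines, with 9.92% to 11.5% in H82 and 9.92% to 12.0% in H146. Between the 3 untreated H82 libraries and the 3 of H146, mean levels lay within 2-fold for 68 of 77 main genes. Levels within the family ranged widely. RPS12 was the highest gene in both untreated lines, with 4371 ± 560 TPM (SD, n = 3) in H82 and 8154 ± 1174 TPM (n = 3) in H146. Main genes had a median of 1030 TPM in untreated H82 and 900 TPM in untreated H146. At the low end stood RPS10 (1.40 TPM in untreated H146), RPL17 (7.26 TPM in untreated H82) and RPL36A. Exons of these genes overlap other genes in GENCODE release 44, for 31.5% of RPS10 bases, 35.5% of RPL17 and 22.4% of RPL36A counting both strands, and for 31.5%, 32.9% and 8.40% on the same strand. Overlap of this size was also found in abundant genes, such as RPS2 with 25.9% on the same strand, and reads shared between genes were not measured. Their read-through partners RPS10-NUDT3, RPL17-C18orf32 and RPL36A-HNRNPH2 were listed at 0 TPM in all 13 libraries, and values of these low genes are uncertain because the division of such reads is not stated.

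Among the main genes and paralogs, the largest untreated contrast between the lines was that of a paralog. RPL39L, a copy of the exit tunnel protein gene RPL39, was at 53.6 ± 2.40 TPM in H82 and 6.28 ± 0.473 TPM in H146 (SD, n = 3 each), an 8.53-fold difference with no overlap. A wider ratio stood at low level in an entry without a match in the annotation, RPS2L1, at 0.175 ± 0.154 TPM in H82 and 13.8 ± 4.29 TPM in H146. RPL7L1 was 2.41-fold higher in untreated H82, at 162 against 67.3 TPM. RPL22L1 was 1.37-fold higher in untreated H146, at 54.9 against 40.1 TPM. These between-line levels were set side by side as TPM and were not tested.

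With FHD-286 the family's share of TPM was higher in H82 and lower in most libraries of H146. In untreated H82 the libraries held 11.3%, 9.92% and 11.5% in the family. In treated H82 they held 24.3%, 14.2% and 12.9%. The groups did not overlap, but treated library 1 stood far above the other treated libraries, and without it the difference in mean share fell from 6.24 to 2.67 percentage points. In that library 76 of 77 main genes were above the mean of the other treated libraries, by a median of 1.73-fold, so the shift was shared by nearly the whole family. It also had the largest MT-RNR2 share of the treated H82 libraries, 2.71% against 1.03% and 0.925%, whose part in the result was not tested.

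In H146 the untreated libraries held 10.4%, 9.92% and 12.0% of TPM in the family. The treated libraries held 8.84%, 11.0%, 7.77% and 8.20%, and the groups overlapped only through treated library 2. In that library 74 of 77 main genes were above the mean of the other treated libraries, by a median of 1.35-fold. MT-RNR2 was again largest there, at 2.77% against 1.50%, 0.211% and 0.139% in the others. Mitochondrial genes as a whole took 22.1% to 24.1% of TPM in untreated and 12.3% to 14.9% in treated H82. Leaving them out of the denominator kept the direction in both lines (14.1% to 20.0% in H82 and 11.8% to 9.65% in H146, as means).

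**Figure D1:**
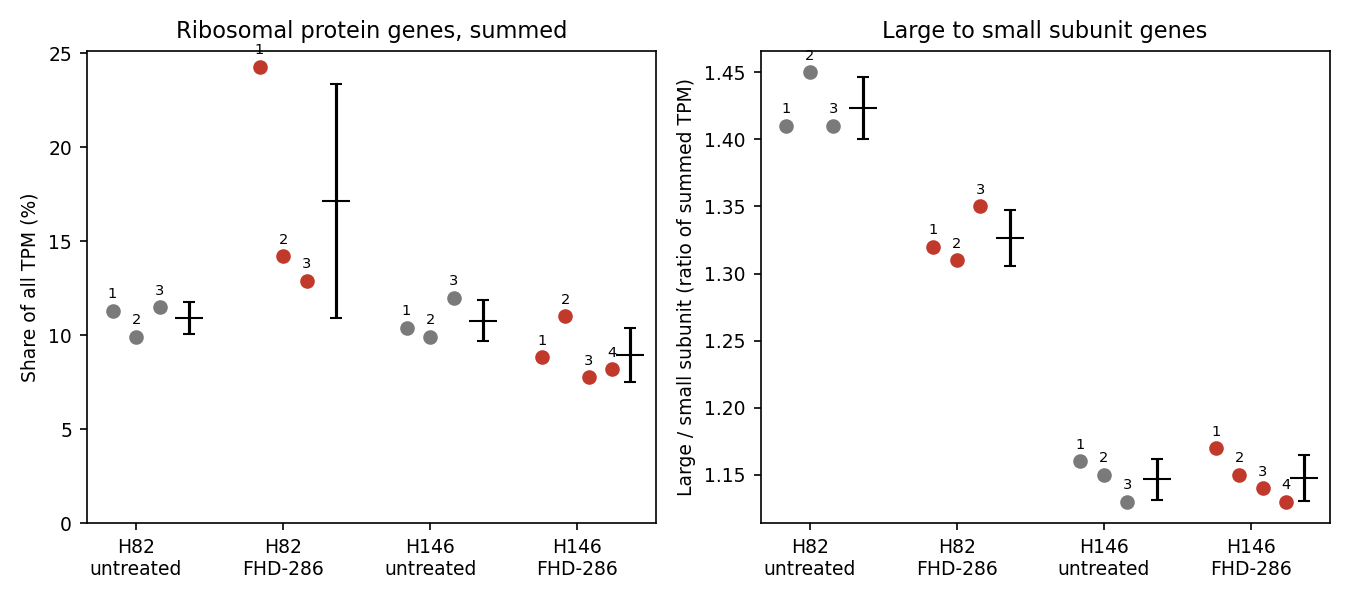
Left, the summed TPM of the 91 ribosomal protein entries as a percent of all TPM in each library, and right, the summed TPM of large subunit genes divided by that of small subunit genes (axis not from 0). Points are libraries numbered by replicate, and bars beside them are the mean and SD. The treated H82 libraries sit at 12.9% to 24.3%, above untreated H82 at 9.92% to 11.5%, and their ratios of 1.31 to 1.35 lie below the untreated 1.41 to 1.45.

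The balance of the subunits differed slightly with treatment in H82. Summed large subunit TPM over summed small subunit TPM was 1.41, 1.45 and 1.41 in untreated H82 and 1.32, 1.31 and 1.35 in treated H82, with no overlap. In H146 it was 1.16, 1.15 and 1.13 without and 1.17, 1.15, 1.14 and 1.13 with treatment, and the groups overlapped. This ratio does not depend on scaling between libraries. In H82 the difference of -0.0946 shrank to -0.0538 without RPS18, a small subunit gene chosen after its values were seen, and to -0.0405 as a ratio of median gene TPM. By that last measure the libraries were at 1.03, 0.944 and 1.04 untreated and 0.907, 1.01 and 0.974 treated, so the groups overlapped. As a share of the family's TPM, RPS18 went from 3.50% ± 0.0866 to 4.94% ± 0.612 (SD, n = 3 each), and RPS21 from 1.05% ± 0.0597 to 2.06% ± 0.180. On the other side, RPL12 went from 2.36% ± 0.0164 to 1.53% ± 0.346 and RPL4 from 2.52% ± 0.177 to 1.73% ± 0.138. The untreated ratio itself differed between the lines, at 1.42 ± 0.0231 in H82 and 1.15 ± 0.0153 in H146.

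Single genes were tested in each line by limma (two-sided) on values of log2(TPM + 1). A gene entered where 3 or more libraries of the line reached 1 TPM, and p values were adjusted by Benjamini-Hochberg across every gene entered, with calls made under 0.05. All 77 main genes and 85 of 91 entries were tested in each line. RPL10L, RPL7AL2, RPL7AL3, RPS10L and RPS5L passed in neither line, RPS2L1 not in H82 and RPL12L3 not in H146. In H82, 20 entries (23.5%) rose, against 13.1% of all 19770 genes tested. Of 656 other protein-coding genes with transcripts under 1000 bases, however, 47.9% rose, so the excess was not seen beside short genes. Only 3 entries (3.53%) fell, against 45.5% of all genes. Untreated H82 libraries had 21227 to 21772 genes at 1 TPM or more, and treated ones 15554 to 16633. The filter thus admits genes that reach 1 TPM only in the untreated libraries. With an untreated H82 library left out, 26.2% to 26.9% of all genes fell. The part of the filter in this contrast was not tested. In H146 the picture was turned around: 24 entries (28.2%) fell, against 15.5% of all 19585 genes tested, and 4 (4.71%) rose, against 32.5%.

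The median log2 fold change of the family was 0.53 in H82 and -0.33 in H146. All genes tested had medians of -0.56 and 0.25. The family thus lay 1.08 above the median gene in H82 and 0.58 below it in H146, on the log2(TPM + 1) scale. With an untreated H82 library left out, the median of all genes was -0.34 to -0.33, and the family lay 0.81 to 0.92 above it. Scaling all libraries by the median of ratios shifted the median of all genes to -0.14 in H82 and -0.02 in H146, and the family stood 1.16 above and 0.63 below them. With that scaling 55 entries rose and 3 fell in H82, against 24.2% and 32.9% of all genes. In H146, 55 fell and 3 rose, against 25.1% and 21.3%. Quantile normalization kept the sign of both medians with smaller sizes, 0.12 in H82 and -0.20 in H146, but not the excess of calls. With it 11 of 85 entries (12.9%) rose in H82, against 26.6% of all genes, and 15 (17.6%) fell in H146, against 20.8%, so both shares lay below those of all genes. The share of entries called, set against all genes, thus changed with the scaling. Dividing by the family's own sum left -0.07 and -0.06 by construction.

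Treated library 1 of H82 widened the spread of the treated group. Without it the median of the family was 0.28, yet 37 entries rose, against 18.4% of all genes. Leaving out an untreated H82 library lowered the count to 8 to 11 (9.52% to 13.1% of entries), close to the 10.2% to 10.3% of all genes in those fits. Leaving out treated library 2, which held INSM1, FOXA2 and EPCAM, gave 15 (17.6%), against 9.03%. In H146, leaving out treated library 2 raised the count of falls to 50, against 19.6% of all genes, and any untreated library left out gave 6 to 14 (7.06% to 16.5%), against 9.58% to 10.8%. Without treated library 3 the count was 10 (11.8%), against 13.9%. Without treated libraries 3 and 4 of H146 together, 8 entries (9.41%) fell, below the 16.6% of all genes. Every such fit kept the sign of the family's median in both lines.

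**Figure D2:**
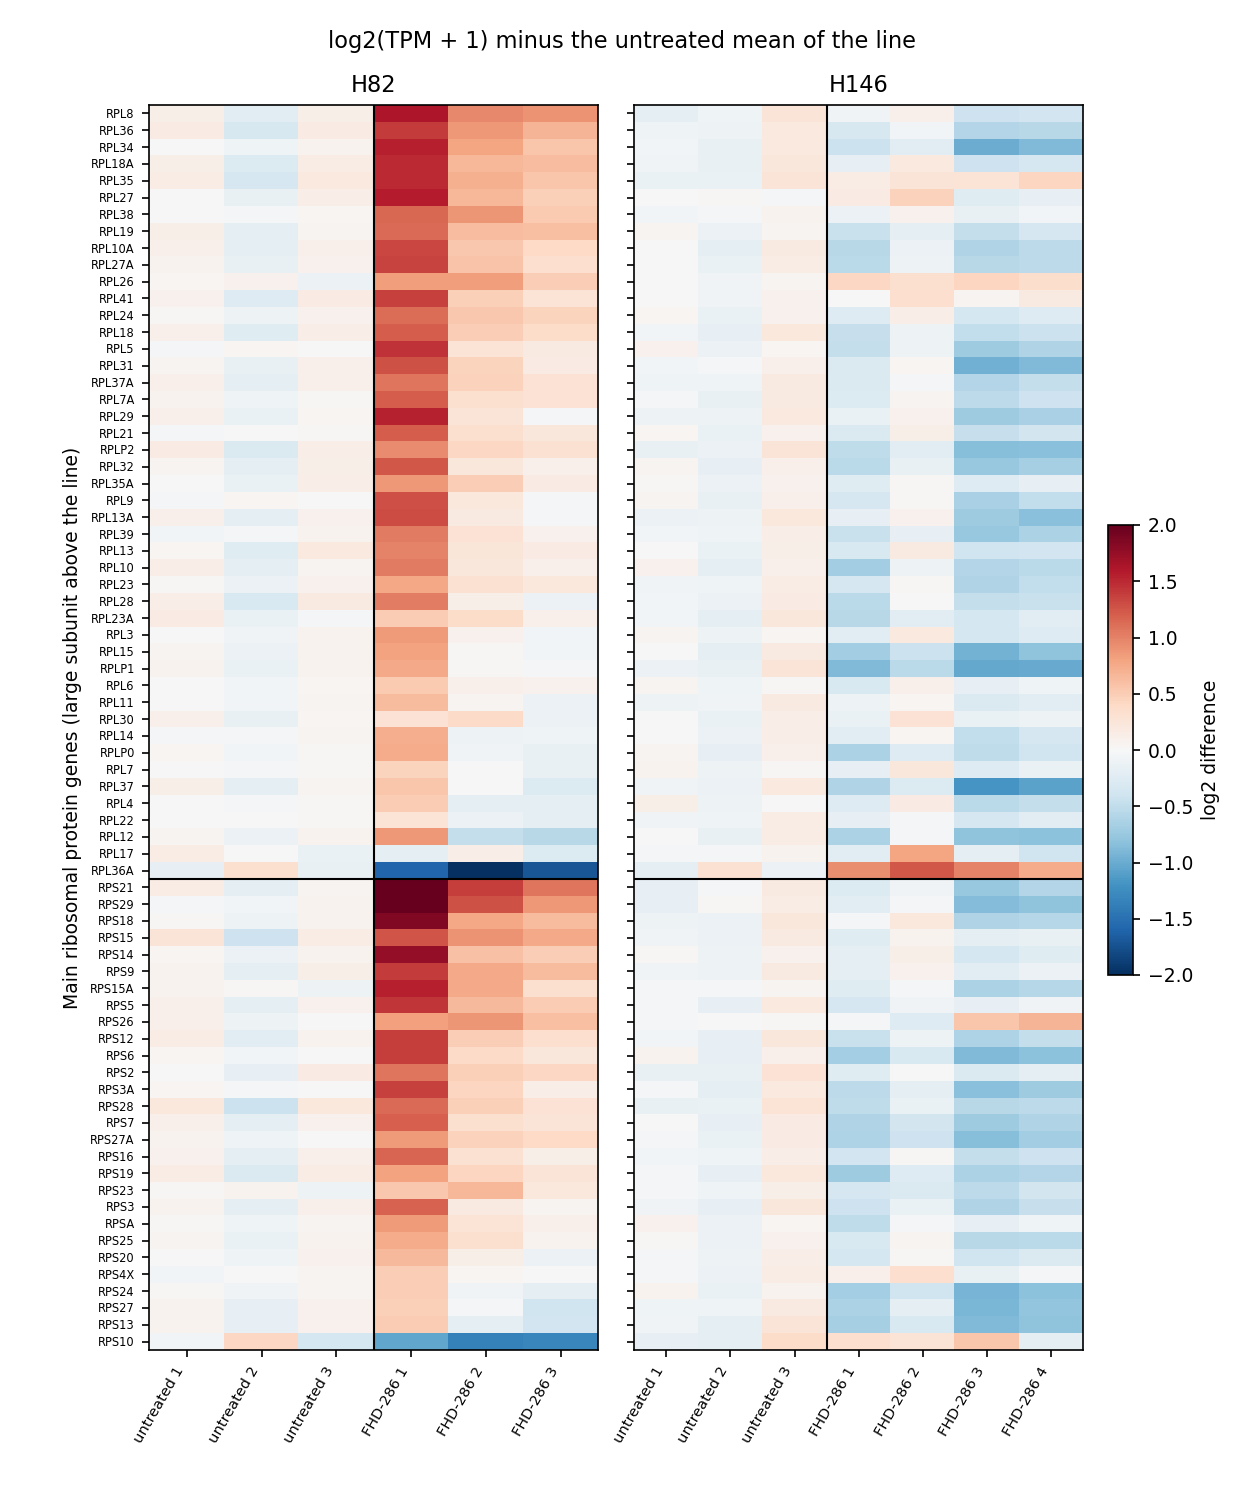
Each row is a main ribosomal protein gene (3 are not shown), large subunit above the black line and small subunit below it, ordered by its mean in treated H82, and each column is a library. Color is log2(TPM + 1) minus the mean of the untreated libraries of the same line. Red fills nearly all rows of treated H82 library 1, the treated columns of H146 are mostly blue except in library 2, and RPL36A and RPS10 run against their neighbors in H82.

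The difference between the lines was tested directly as the interaction of line and treatment over all 13 libraries. It passed for 47 of 86 entries in the direction of H82 (54.7%), against 13.3% of 24374 genes tested, and for 4 in the direction of H146, against 46.0%. After scaling by the median of ratios these counts were 79 and 2, against 25.5% and 30.8% of all genes. Those that passed toward H146 before that scaling included RPL36A, RPL7L1 and RPS10. Both fold changes were available for 84 entries. Of these, 66 had a positive value in H82 and a negative one in H146, 9 were positive in both, 5 negative in both, and 4 negative in H82 and positive in H146.

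**Figure D3:**
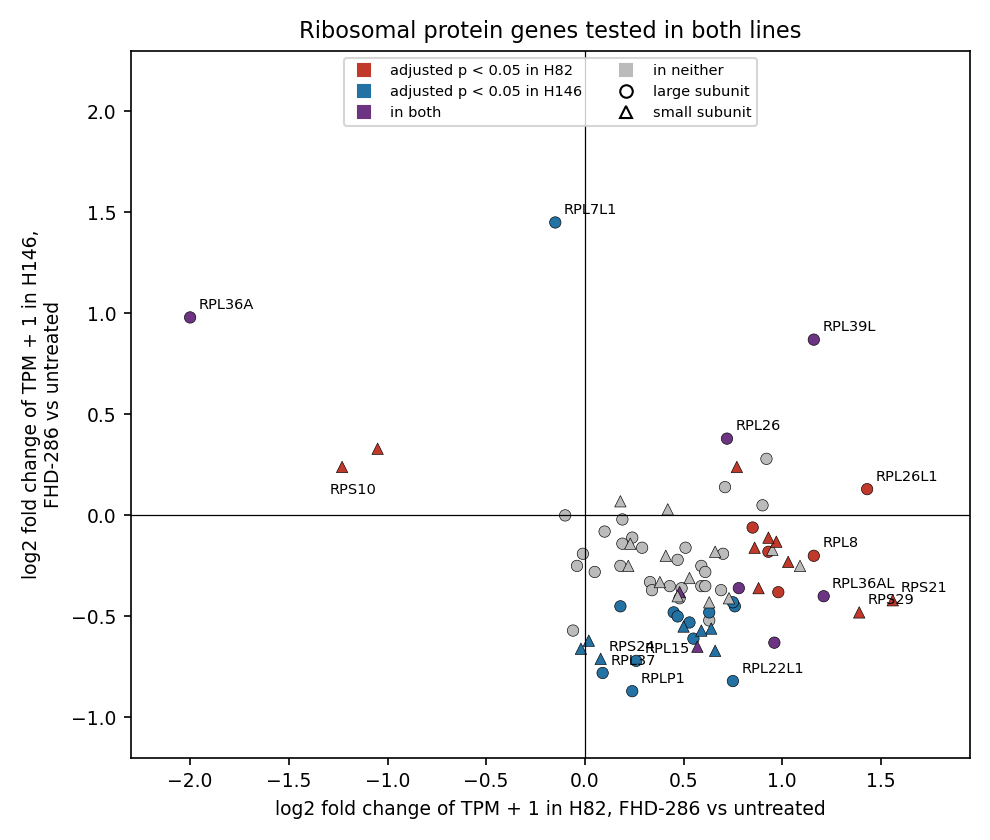
Each point is a ribosomal protein gene tested in both lines, by its log2 fold change in H82 (horizontal) and H146 (vertical), on the scale of TPM + 1 with no further scaling. Circles are large and triangles small subunit genes, and color marks where the adjusted p was under 0.05. Most points lie at the lower right, positive in H82 and negative in H146, with RPL36A alone at the far upper left.

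The medians of the large and small subunits lay close together, while in H82 a larger share of the small subunit genes was called higher, a difference that was not tested. Of the 46 large subunit main genes, 7 rose and 1 fell in H82 (median 0.50), and 13 fell and 2 rose in H146 (median -0.34). Of the 31 small subunit main genes, 10 rose and 2 fell in H82 (median 0.59), and 9 fell in H146 (median -0.33). Of the latter, 0 rose in H146 by limma, and 0 did at an unadjusted p under 0.05. Among the large subunit proteins at the rim of the exit tunnel, 3 of 10 rose in H82, and 3 fell and 1 rose in H146. Of the 14 genes of the small subunit head, 4 rose and 2 fell in H82, and 2 fell in H146. Among all genes tested, 13.1% rose and 45.5% fell in H82, and 32.5% rose and 15.5% fell in H146. The counts of these groups were not tested against those shares.

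RPS21, a small subunit protein gene, gave the largest rise of the family in H82. It was at 1264, 994 and 1189 TPM untreated and at 5381, 2991 and 2406 TPM treated. Every treated library lay above every untreated one (log2 fold change 1.56, SE 0.34, limma adjusted p = 0.00655), and without treated library 1 it was 1.23. In H146 its 3 untreated libraries were at 1796, 1994 and 2287 TPM and the treated ones at 1668, 1930, 1188 and 1340 TPM, which overlapped (log2 fold change -0.42, adjusted p = 0.0971). RPS29, the zinc-binding protein of the small subunit head, was at 60.8, 59.3 and 64.9 TPM untreated and 258, 150 and 113 TPM treated in H82 (log2 fold change 1.39, SE 0.29, adjusted p = 0.00544). RPS21 and RPS29 also had the largest differences between the lines in the direction of H82 among the family, 1.99 and 1.87.

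RPL8, a core protein near the peptidyl transferase center, was at 3144, 2467 and 3135 TPM in untreated H82 and 8917, 5648 and 5391 TPM in treated H82. No library overlapped, and it rose by 1.16 (SE 0.32, limma adjusted p = 0.0181), while in H146 it had a log2 fold change of -0.20 (adjusted p = 0.411). RPS18, the most abundant family gene in treated H82, was at 3876, 3567 and 3999 TPM untreated and 13726, 6536 and 5927 TPM treated. Its spread in treated H82 was wide, and the change of 1.09 missed the threshold (SE 0.40, adjusted p = 0.0518). The smallest called rise of a main gene in H82 was 0.48 (RPS23). Of the 85 entries tested in H82, 49 (57.6%) had every treated library above every untreated one, against 16.4% of all genes tested, while a complete separation in the opposite direction was found for 51.4% of all genes.

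The falls in H82 included 2 low genes with overlapping exons, RPS10 and RPL36A. RPS10 went from 6.91, 10.0 and 5.47 TPM to 3.04, 2.24 and 2.33 TPM (log2 fold change -1.23, SE 0.25, limma adjusted p = 0.00504). Its groups were apart in H82, and it did not pass in H146 (0.24, adjusted p = 0.426). RPL36A is described with its paralog below.

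All 3 stalk genes fell in H146, where 72 of the 85 entries tested had a negative fold change. RPLP1 had the largest fall of the family there, from 1304, 1275 and 1686 TPM to 763, 967, 692 and 699 TPM, with no overlap (log2 fold change -0.87, SE 0.17, limma adjusted p = 0.00354). RPLP2 fell by 0.61 (adjusted p = 0.0307) and RPLP0 by 0.45 (adjusted p = 0.0288), also without overlap. With libraries divided by the family's sum, only RPLP1 still passed in H146 (-0.59, limma adjusted p = 0.00587). RPLP2 then had -0.33 (adjusted p = 0.0660) and RPLP0 -0.17 (adjusted p = 0.341). In H82, 0 of the 3 passed the threshold in limma, and 0 had an unadjusted p under 0.05, with log2 fold changes of 0.24 for RPLP1, 0.55 for RPLP2 and 0.18 for RPLP0. The difference between the lines passed for RPLP1 (1.11, adjusted p = 0.00849) and RPLP2 (1.16, adjusted p = 0.00806), and for RPLP0 it was 0.62 (adjusted p = 0.0977).

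Of the 5S particle, RPL5 fell in H146 by 0.48 (SE 0.16, limma adjusted p = 0.0415), from 1782, 1550 and 1739 TPM to 1212, 1567, 1030 and 1106 TPM. Treated library 2 lay among the untreated ones. In H82, RPL5 was at 2460, 2565 and 2473 TPM untreated and 6809, 3019 and 2829 TPM treated, so treated library 1 set most of its 0.63 (adjusted p = 0.196). RPL11 had 0.19 in H82 (adjusted p = 0.554) and -0.14 in H146 (adjusted p = 0.407), and its groups overlapped in both lines. The difference between the lines was 1.11 for RPL5 (adjusted p = 0.0296) and 0.33 for RPL11 (adjusted p = 0.293).

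Other large falls in H146 were RPL37, RPL15 and RPS24. RPL37, a zinc-binding protein at the exit tunnel, went from 236, 230 and 285 TPM to 164, 206, 109 and 118 TPM (log2 fold change -0.78, limma adjusted p = 0.0194). RPL15, a large subunit core protein, went from 487, 436 and 559 TPM to 304, 365, 256 and 280 TPM (-0.72, adjusted p = 0.00552). RPS24, a small subunit gene mutated in some cases of Diamond-Blackfan anemia, went from 472, 410 and 474 TPM to 281, 341, 236 and 254 TPM (-0.71, adjusted p = 0.00493). Treated library 2 was the highest of the treated group in all 3 genes and still lay below every untreated library. Of the 85 entries tested in H146, 20 (23.5%) had every treated library below every untreated one, against 17.3% of all genes tested.

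RPS12, the most abundant family gene of untreated cells, was at 7766, 7223 and 9473 TPM in untreated H146 and at 5934, 7529, 5304 and 5796 TPM in treated H146, where library 2 lay inside the untreated range (log2 fold change -0.41, limma adjusted p = 0.0883). As a share of the family's TPM it went from 7.55% ± 0.323 to 6.86% ± 0.150 (SD, n = 3 and 4).

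Some exceptions to the family's direction lay in the paralog pairs: the main gene RPL36A in both lines, and the paralogs RPL7L1 and RPL39L in H146. RPL36A and RPL36AL encode near-identical large subunit proteins, one gene on chromosome X and the other on chromosome 14. In H82, RPL36A went from 18.9, 26.8 and 19.2 TPM to 6.48, 2.42 and 5.82 TPM, while RPL36AL went from 414, 352 and 366 TPM to 994, 891 and 743 TPM. Both pairs of groups were apart, and RPL36A fell by 2.00 (SE 0.33, limma adjusted p = 0.00211) as RPL36AL rose by 1.21 (SE 0.18, adjusted p = 0.00142). In H146 the opposite held. RPL36A went from 4.07, 6.17 and 4.38 TPM to 10.1, 12.8, 10.5 and 8.71 TPM and rose by 0.98 (adjusted p = 0.00359), and RPL36AL went from 567, 606 and 724 TPM to 500, 429, 465 and 510 TPM and fell by 0.40 (adjusted p = 0.0297).

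The differences between the lines were -2.98 for RPL36A (adjusted p = 4.44e-05) and 1.61 for RPL36AL (adjusted p = 4.49e-05), by limma. RPL36AL as a percent of RPL36A was 1315 to 2195 in untreated and 12765 to 36872 in treated H82, and 9821 to 16512 in untreated and 3338 to 5851 in treated H146. The directions of both genes in both lines were kept under the median of ratios. How reads of these similar copies and of 8 RPL36A pseudogene entries were divided is not stated, and the share of RPL36A that this moved was not tested.

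RPL39L was the one paralog that rose in both lines. It went from 55.5, 50.9 and 54.3 TPM to 113, 129 and 120 TPM in H82 (log2 fold change 1.16, SE 0.13, limma adjusted p = 4.42e-04) and from 5.74, 6.52 and 6.59 TPM to 13.9, 13.2, 12.2 and 10.2 TPM in H146 (0.87, SE 0.15, adjusted p = 0.00233). The groups were apart in both lines, and the difference between the lines was 0.29 (adjusted p = 0.181). Its main gene RPL39 had 0.47 in H82 (adjusted p = 0.194) and fell by 0.50 in H146 (adjusted p = 0.0298). RPL39L as a percent of RPL39 was 4.35 to 4.87 in untreated and 4.68 to 9.54 in treated H82, and 0.860 to 0.990 in untreated and 2.12 to 2.99 in treated H146.

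RPL7L1, a paralog of RPL7 that takes part in ribosome assembly, rose only in H146 among the tests of the separate lines. Its values were 65.4, 72.7 and 63.8 TPM untreated and 186, 113, 232 and 245 TPM treated (log2 fold change 1.45, SE 0.25, limma adjusted p = 0.00212). In H82 it was at 158, 165 and 163 TPM untreated and 107, 159 and 181 TPM treated, which overlapped (-0.15, adjusted p = 0.564). The difference between the lines, -1.61, passed the test (adjusted p = 0.00206). RPL7 itself passed in neither line. As a percent of RPL7, the paralog was 2.44 to 3.06 in untreated and 3.79 to 10.9 in treated H146.

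RPL22L1, a paralog of the RNA-binding protein gene RPL22, went the other way in H146. It was at 59.0, 48.0 and 57.6 TPM untreated and 28.1, 44.0, 24.7 and 28.2 TPM treated, and it fell by 0.82 (SE 0.20, limma adjusted p = 0.00967). RPL22 had -0.19 there (adjusted p = 0.235). In H82, RPL22L1 was at 38.7, 38.1 and 43.4 TPM untreated and 127, 50.1 and 49.2 TPM treated, so all treated libraries were higher but library 1 by far the most (0.75, adjusted p = 0.113). The difference between the lines passed (1.57, adjusted p = 0.00722).

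RPL26L1, a copy of RPL26, rose in H82 from 56.8, 51.9 and 54.9 TPM to 99.4, 185 and 178 TPM (log2 fold change 1.43, SE 0.25, limma adjusted p = 0.00259). Here treated library 1 was the lowest of its group, unlike for most of the family. In H146 the treated libraries fell into a lower pair at 53.0 and 50.8 TPM and a higher pair, libraries 3 and 4, at 78.5 and 77.0 TPM, against 54.6, 53.8 and 65.8 TPM untreated (0.13, adjusted p = 0.582). RPL26 rose in both lines, by 0.72 in H82 (adjusted p = 0.00572) and by 0.38 in H146 (adjusted p = 0.0174). After scaling by the median of ratios it no longer passed in H146 (0.07, adjusted p = 0.637).

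The other pairs changed little or were near the limit of detection. RPS27L, a paralog of RPS27 and a p53 target gene, passed in neither line by limma, with 0.23 in H82 (adjusted p = 0.328) and -0.14 in H146 (adjusted p = 0.614). RPS27 fell in H146 by 0.62 (adjusted p = 0.0267) and had 0.02 in H82 (adjusted p = 0.963). RPL3L, a muscle paralog of RPL3, ranged from 0.971 to 4.51 TPM over all 13 libraries, and neither RPL3L nor RPL3 passed in either line. RPL10 fell in H146 by 0.48 (adjusted p = 0.0384), with treated library 2 inside the untreated range. RPL10L was listed at 0 to 0.639 TPM and was not tested.

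**Figure D4:**
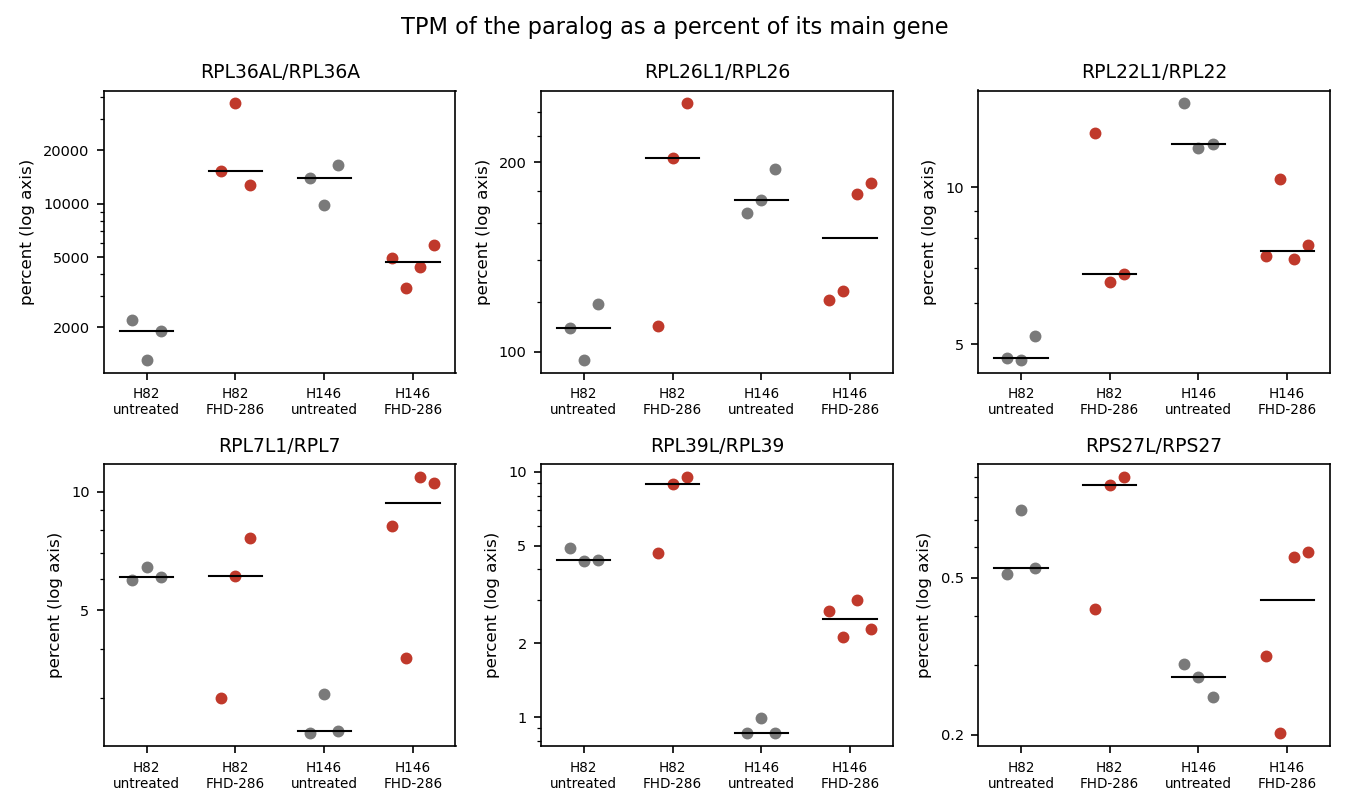
TPM of a paralog as a percent of the TPM of its main gene in each library (log axes), for 6 pairs, with gray points for untreated and red points for FHD-286 libraries and a bar at the median. RPL36AL over RPL36A is higher with treatment in H82 and lower in H146, and RPL39L over RPL39 is higher with treatment in H146, with 2.12 to 2.99 percent against 0.860 to 0.990.

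Outside the symbol rule, FAU, whose product is cut into a ubiquitin-like protein and the small subunit protein eS30, had a larger rise than any family member. It went from 119, 87.1 and 104 TPM to 449, 426 and 338 TPM in H82 (log2 fold change 1.96, SE 0.18, limma adjusted p = 2.86e-04). The untreated H146 libraries held 276, 271 and 295 TPM and the treated ones 244, 322, 260 and 261 TPM (-0.05, adjusted p = 0.736). The difference between the lines was 2.01 (adjusted p = 1.26e-05). RACK1, a signaling scaffold on the small subunit, passed in neither line, with 0.19 in H82 and -0.33 in H146.

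Changes within the family were separated from the shift of the whole by dividing each library by its summed family TPM. In H82, RPS21 (0.97), RPS29 (0.80), RPL8 (0.56) and RPS18 (0.49) then rose, and the falls included RPL36A, RPS10, RPL12, RPS27 and RPL4, with -0.54 for RPL4 and -0.65 for RPL12. For comparison, 3.62% of all genes rose and 52.1% fell with this scaling in H82, against 4 and 6 of 85 entries. In H146, 7 genes rose (RPL7L1, RPL36A, RPL39L, RPL26, RPL35, RPL41 and RPS4X) and 8 fell (RPLP1, RPL22L1, RPL37, RPL15, RPS24, RPS6, RPS13 and RPS27). The 8 falls (9.41% of entries) are the share of all genes, 9.29%, and the 7 rises stand against 36.4% of all genes. RPLP1 led the falls with -0.59 and RPL7L1 the rises with 1.73. These limma calls share the threshold of 0.05 but rest on a scaling in which the sum of the family cannot change.

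Transcript length moved with the changes in H82. The canonical transcripts of the main genes had a median of 785 bases, against 3291 bases for 12180 protein-coding genes tested in H82 with a length in GENCODE release 44. Among other protein-coding genes in H82, the median log2 fold change was 0.62 for 656 genes under 1000 bases, 0.31 from 1000 up to 2000 bases, -0.12 from there up to 4000 bases and -0.65 for those of 4000 bases or more. Family members in the same classes had medians of 0.64, 0.51, 0.47 and 0.20 (47, 17, 14 and 6 entries). Short genes outside the family thus had a median close to that of the family's short genes in H82. From the shortest class to the longest, 47.9%, 34.8%, 16.0% and 6.75% of the other genes rose in H82, against 23.5% of all family entries tested. Falls were called for 20.4%, 18.4%, 26.4% and 53.6% of the other genes, against 3.53% of family entries.

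In H146 the same classes of other genes had medians of 0.03, 0.09, 0.20 and 0.35, and the family had -0.28, -0.20, -0.36 and -0.31. The family lay below other genes in each length class there. From the shortest class to the longest, 22.3%, 22.7%, 17.9% and 13.8% of the other genes fell in H146, against 28.2% of all family entries tested. Scaling by the median of ratios gave 1.09 for other genes and 1.13 for the family under 1000 bases in H82, and -0.27 and -0.60 in H146. The lengths used are those of the annotation and not of the transcripts in these cells, and the part of length in the family's change was not tested.

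**Figure D5:**
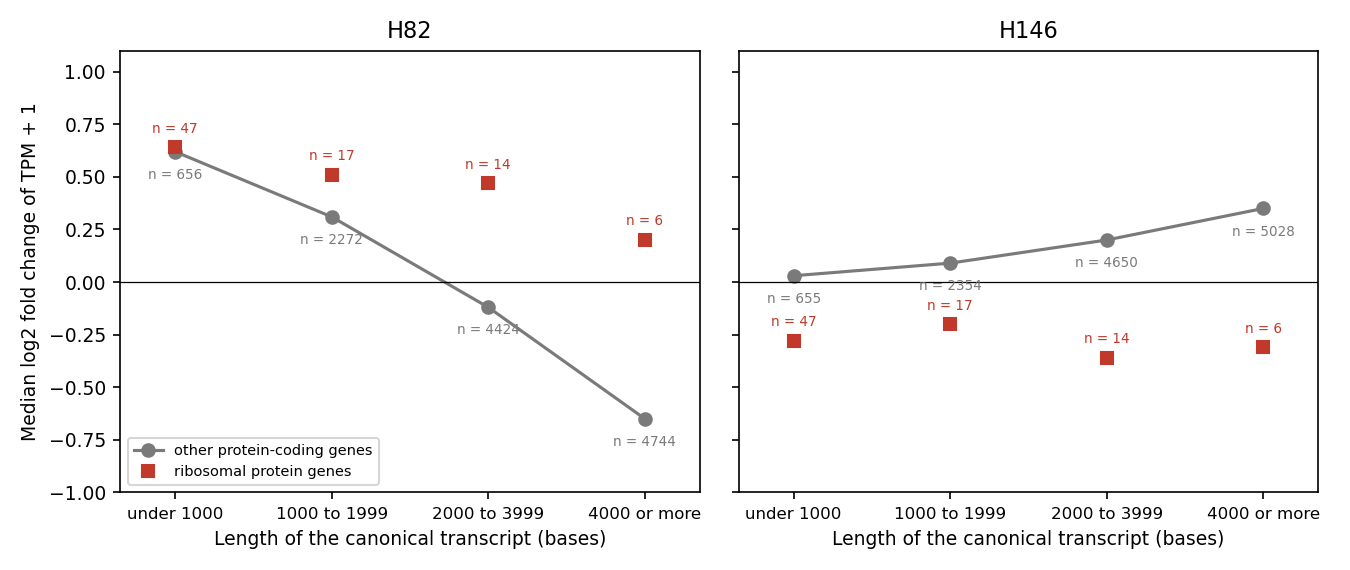
Median log2 fold change (TPM + 1) with FHD-286 by length class of the canonical transcript, for H82 (left) and H146 (right). Gray circles are protein-coding genes outside the family and red squares are ribosomal protein genes, each with its number of genes. In H82 the gray line goes from 0.62 in the shortest class to -0.65 in the longest and meets the family at the short end, and in H146 the family lies below it in every class.

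Family members with and without the TOP start had close medians. In H82, 42 main genes with a C and at least 5 pyrimidines from the annotated start had a median of 0.57, and 20 main genes with another start had 0.51. In H146 the medians were -0.37 and -0.32. The middle of the values overlapped, with quartiles of 0.35 to 0.72 and 0.25 to 0.76 in H82 and of -0.52 to -0.19 and -0.48 to -0.12 in H146.

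Related genes of translation and ribosome production were counted in the same fits, in which 13.1% of all genes rose and 45.5% fell in H82 and 32.5% rose and 15.5% fell in H146, with medians of -0.56 and 0.25. Differences of these lists from the family or from all genes were not tested. Of the translation factors with TOP mRNAs, 1 of 12 rose in H82 (EEF1B2, 0.74) and 2 fell (EEF1D, -0.91, and PABPC1, -0.77), with a median of -0.10. In H146, 4 of 12 fell, TPT1 the most (-0.64), with BTF3, EIF3E and EIF3H, and the median was -0.33. Of the ribosome biogenesis factors, 23 of 50 rose in H146, the direction of more genes overall there, led by WDR3 (1.69), and 3 fell, led by NMD3 (-0.67). In H82, 11 of them rose, IMP3 the most (1.45), and 3 fell, NOP2 the most (-1.89).

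RNA polymerase I genes, whose enzyme makes the large rRNA precursor, had 6 of 14 lower in H82, near the share of all genes, with 1 higher, and 8 higher and 2 lower in H146. POLR1A, the largest subunit, rose by 1.78 in H146, ZNRD1 rose by 1.23 in H82, and TAF1D fell in both lines, by 1.14 and 0.88. Mitochondrial ribosomal protein genes rose in H82 in 47 of 76 cases, with 1 fall (MRPS25, -0.51), a median of 0.70 and MRPL24 at the top (1.88). The lowest value there, MRPL53, was -0.57 and missed the threshold. In H146, 13 of 76 rose and 7 fell, with MRPL28 (1.60) and MRPL48 (-1.26) at the ends and a median of 0.07.

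Host genes of small nucleolar RNAs, which carry TOP motifs but mostly encode no protein, fell in H146 in 8 of 11 cases, with a median of -1.30. SNHG12 went from 121 ± 23.8 TPM (SD, n = 3) to 22.3 ± 4.88 TPM (n = 4), a difference of -2.40 on the log2 scale (limma adjusted p = 6.15e-05). The largest value there was 0.42 for SNHG16 and missed the threshold. In H82, 1 of 11 fell (SNHG15, -0.61) and 0 rose by limma (0 at an unadjusted p under 0.05), with a median of -0.34, and the ends were -0.76 for SNHG12 and 0.87 for SNHG7, neither past the threshold. After scaling by the median of ratios, 10 of 11 fell in H146 and 0 passed in H82, where 2 had an unadjusted p under 0.05, both higher. With that scaling 25.1% of all genes fell in H146, and 24.2% rose and 32.9% fell in H82.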

How the data were processed

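RNA of H82 and H146 was extracted and made into libraries at Genewiz. STAR with GENCODE release 28 was used by the authors for mapping to hg38 and for gene counts. They compared groups with DESeq2 (the submitters' processing notes also name Trim Galore 0.4.4) and deposited 1 table of TPM values per line, with 56831 entries each. How gene length was taken, library selection and strand are not given in the sources used here. TPM keeps no read depth, so no counting interval is given, and the number and spread of libraries set the precision.

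Groups were taken from the labels. For each line limma 3.58.1 (lmFit, eBayes with a trend) in R 4.3.3 was fitted to log2(TPM + 1), with no term other than treatment. A gene was tested where 3 or more libraries of the line reached 1 TPM, and the interaction of line and treatment was fitted over all 13 libraries by the same minimum. A fold change on the log2(TPM + 1) scale understates the change of low genes. Shares and ratios over the family were given per library with no test. Exact permutation of single values cannot go below p = 0.1 with 3 against 3 libraries. The fitting code was first tested on simulated data holding known changes.

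Members and lists were chosen with earlier results of these data known. Genes named are, in each line, the 5 largest rises and 5 largest falls past the threshold without overlap of groups, the 3 largest and 3 smallest differences between lines, all paralog pairs, RPL5, RPL11, the stalk genes, the highest and lowest genes, FAU, RACK1, and the largest rise and fall of each related list. Others (RPS2, RPS2L1, RPS23, RPL4, RPL12, RPL17 outside the lowest genes, RPL35, RPL41, RPS26, RPS4X, RPS6, RPS13, NEUROD1 and other markers, MT-RNR2, PABPC1, MRPS25, SNHG15, BTF3, EIF3E and EIF3H) were named after their values were seen. Some genes that the rule names are not reported here by name, though they count in the totals.

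Alternatives were a pseudocount of 0.1, no filter, a mean TPM above 2, scaling by the median of ratios, by quantiles, without mitochondrial genes and by the summed family, the replicate number entered as a block, no trend in eBayes, library weights (with statmod 1.5.0), an adjusted p threshold of 0.1, other sums for shares and ratios, and each library left out. Leaving out treated H146 libraries 3 and 4, or 1 and 2, and leaving out RPS18 were added after the data were seen. Promoter windows were taken from RefSeq (GRCh38.p14), and gene positions and lengths from GENCODE release 44. Tables were prepared in Python 3.11.15 (pandas 2.3.3, numpy 2.4.6, scipy 1.17.1) and plots with matplotlib 3.10.9.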

Additional observations from a re-analysis of the deposited data

Results flagged for a closer look

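In treated H146 library 2, 3 of 44 values tested lay far from the other treated libraries of the line by Dixon's test on 4 values. RPL22L1 was at 10.4 percent of RPL22, against 7.29 to 7.75 in the others. RACK1 was at 822 TPM, against 568 to 602 TPM, and RPL17 at 52.3 TPM, against 22.6 to 26.4 TPM. Chance flags about 1 in 20 such groups.

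The change differed between the lines past the threshold (limma interaction, adjusted p under 0.05) for 20 of the genes named. Some of them were named because of this test or for their change in a line, so the count is partly set by that choice. Of all genes tested, 13.3% passed toward H82 and 46.0% toward H146. As the log2 change in H82 minus that in H146, the values were 2.01 for FAU, 1.99 for RPS21, 1.87 for RPS29, 1.61 for RPL36AL, 1.57 for RPL22L1, 1.36 for RPL8, 1.34 for RPS18 and 1.30 for RPL26L1. RPLP2 had 1.16, RPS12 1.14, RPLP1 1.11, RPL5 1.11, RPL15 0.97, RPL39 0.97, RPL10 0.93, RPL37 0.87 and RPS24 0.79. The negative values were -2.98 for RPL36A, -1.61 for RPL7L1 and -1.48 for RPS10.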

How the results depend on the processing

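The family's median kept its sign in both lines in all fits run except when libraries were divided by the family's own sum, which left -0.07 in H82, -0.06 in H146 and 0.00 for the difference between the lines, by construction of that scaling. The median of ratios gave medians of 1.02, -0.65 and 1.68, and quantile normalization 0.12 in H82 and 0.32 for the difference. The counts of called members moved more than the medians, and the cause was not tested. TPM holds no depth, so which calls depth limits cannot be given.

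Members that rose in H82 numbered 10 with no filter, 55 with the median of ratios, 11 with quantiles, 13 without mitochondrial genes, 31 with library weights and 4 scaled to the family, where 6 fell. Set against all genes in the same fits, the share of members was above in all of these but the quantile one (12.9% against 26.6%). Members that fell in H146 numbered 10 with no filter, 55 with the median of ratios, 15 with quantiles, 59 with library weights (7 rose), and 8 scaled to the family (7 rose). They numbered 8 without treated libraries 3 and 4 and 56 without 1 and 2. The share was below that of all genes with quantiles (17.6% against 20.8%) and without libraries 3 and 4 (9.41% against 16.6%). For the difference between the lines, the counts toward H82 and H146 were 79 and 2 with the median of ratios. Scaled to the family they were 4 and 8, and in each direction the share of members lay below that of all genes. Quantiles gave 21 toward H82 (24.4%, against 25.4% of all genes).

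In the related lists, falls in H82 numbered 7 with no filter, 2 with the median of ratios, 21 without mitochondrial genes, 28 with library weights and 20 at an adjusted p under 0.1, against 13. Of all genes, 25.9% fell with no filter, 32.9% with the median of ratios, 50.2% without mitochondrial genes and 53.0% with library weights, against 45.5%. Rises in H82 numbered 103 with the median of ratios and 101 with library weights, against 61. The shares of all genes that rose were 24.2% and 20.1%, against 13.1%. In H146 the median of ratios gave 57 falls and 22 rises, against 24 and 44, library weights gave 86 rises, and leaving out treated libraries 1 and 2 gave 89. With the median of ratios 25.1% of all genes fell and 21.3% rose there, against 15.5% and 32.5%. All genes rose in 46.7% of cases with library weights and in 41.6% without treated libraries 1 and 2. The part of these shifts particular to the lists was not tested.

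With each library left out in turn, rises of members in H82 ranged from 8 to 37 and falls from 3 to 4. In H146, falls ranged from 6 to 50 and rises from 3 to 4. For the difference between the lines the counts were 34 to 61 toward H82 and 4 toward H146. Of all genes in those fits, 10.8% to 14.4% passed toward H82 and 38.6% to 48.0% toward H146. The family's medians ranged from 0.28 to 0.74 in H82, from -0.41 to -0.25 in H146 and from 0.61 to 1.05 for the difference. For the share the H82 difference lay between 2.67 and 8.35 percentage points and the H146 one between -2.50 and -1.21. In the related lists the ranges were 1 to 28 falls and 40 to 100 rises in H82, and 13 to 30 falls and 26 to 67 rises in H146. Of all genes in the same fits, 26.2% to 52.2% fell and 9.03% to 18.4% rose in H82. In H146, 9.58% to 19.6% of all genes fell and 22.6% to 39.3% rose.

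The difference in the large to small subunit ratio ranged from -0.105 to -0.0821 in H82 with a library left out, and was -0.0405 with medians and -0.0538 without RPS18. In H146 it ranged from -0.00394 to 0.00921 and was -0.00815 without treated libraries 1 and 2, so it had no stable sign. Without 1 library, the log2 paralog ratios RPL36AL to RPL36A ranged, for H82 and then H146, from 2.98 to 3.75 and from -1.74 to -1.37, RPL39L to RPL39 from 0.514 to 1.03 and from 1.39 to 1.56, and RPL22L1 to RPL22 from 0.465 to 0.939 and from -0.777 to -0.564. RPL26L1 to RPL26 ranged from 0.465 to 1.06 and from -0.355 to -0.152, RPL7L1 to RPL7 from -0.526 to 0.148 and from 1.38 to 1.89, RPS27L to RPS27 from 0.0294 to 0.586 and from 0.255 to 0.761, and RPL3L to RPL3 from -0.875 to -0.0642 and from -0.378 to -0.0232. Without treated libraries 3 and 4 of H146, RPL26L1 to RPL26 was -0.534 and RPS27L to RPS27 was -0.129, and without libraries 1 and 2 they were 0.0293 and 1.05.

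Single values reversed, with a call on either side, for RPL17 in H82 with quantiles (0.68) and, scaled to the family, for RPS27 in H82 (-0.58) and for the differences between the lines of RPL7 (-0.69), RPL22 (-0.69), RPL11 (-0.54) and RPS24 (-0.08). Of 96 values for named genes, 35 kept their direction and side of the threshold in every fit. Among the 46 of these values that were called, 17 did so.

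Replicate numbers showed no sign of pairing the samples: deviations of same-numbered libraries correlated by -0.038 to 0.027 in H82 and -0.111 to 0.011 in H146. Libraries with different numbers gave -0.038 to 0.047 and -0.037 to 0.107. The deviations were taken from the means of small groups, so these values cannot settle whether samples were paired. With the replicate number as a block, 13 members rose in H82 (15.3%, against 11.8% of all genes) and 5 fell in H146 (5.88%, against 12.1%). In the same fit 29 genes of the related lists rose in H146, as did 24.2% of all genes. The fourth treated library of H146 has no partner in that fit and does not add to the comparison.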

Other observations

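The 413 entries of pseudogenes with a family member as parent held 0.371% to 0.427% of TPM in untreated H82 and 0.688% to 0.952% in untreated H146, against 0.342% to 0.712% and 0.552% to 0.741% with FHD-286. Among the 100 most abundant genes of a library, 43 to 45 were ribosomal protein genes in untreated H82 and 32 to 35 in untreated H146, with 42 to 54 and 30 to 36 under treatment.

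RPS26, named after its values were seen, had 402 ± 28.2 TPM in untreated H82 and 151 ± 2.67 TPM in untreated H146 (SD, n = 3 each), 2.66-fold apart with no overlap.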
